A study of Mus musculus with 4 samples.

Results

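The regions described here are STAT3 ChIP-seq peaks whose centre lay inside a long noncoding RNA (lncRNA) gene and more than 5 kb from any protein-coding gene. They were taken from the peak lists of mouse spinal cord on chromosomes 1 to 19 and X, with gene positions from the RefSeq annotation of GRCm38.p6. By this rule 7707 of 124996 peaks were members, 5447 of 88757 in the sham list and 2260 of 36239 in the SCI (spinal cord injury) list. STAT3 chromatin immunoprecipitation was done with a rabbit antibody on cells dissociated from the epicentre tissue of C57BL/6 mice, and no sort for a cell type is described. Sham mice had a laminectomy at thoracic level 9 and no contusion, and SCI mice had a moderate contusion of 60 kdyn at the same level. Both were sampled after 7 days, and the sources used here give neither age nor sex. Each condition had 1 STAT3 library from pooled tissue of 3 mice, so no difference between sham and SCI in the text has a replicate check or a test. Read depth is unknown and the input libraries were not analysed here.

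lncRNA genes are transcribed into RNAs that are not translated into protein. Some of these RNAs act on chromatin or on neighbouring genes, others are the host transcripts of microRNAs or small nucleolar RNAs, and most predicted lncRNA genes have no described role. STAT3 is a transcription factor that is phosphorylated after signalling by interleukin-6 type cytokines, and its family binds DNA at a palindrome of TTC and GAA separated by a short spacer. In the injured spinal cord STAT3 is known for its part in the astrocyte response. A peak inside an lncRNA gene marks a place in that gene's span and says nothing of whether the RNA is made, or of which gene the place acts on. Exons and introns were not separated, because the gene table used here gives only each gene's span.

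Members at the start of an lncRNA gene were few, and 4 promoter windows were touched by members of both lists. A window covers 250 bases before to 50 bases after an annotated start, and only a peak at or next to a start can both touch it and have its centre in the gene. In all, 49 sham members (0.8996%) and 13 SCI members (0.575%) touched a window of their own gene. The share that an even spread of members along the genes would give was not computed. Of all SCI members, at starts or not, 22.1% overlapped a sham peak. The 4 windows touched by members of both lists are shown, and capitals mark the bases that lay under the sham and the SCI peak alike. They are Gm27204 (gene ID 102635951, chr9:72779378-72779677, minus strand), Gm30423 (gene ID 102632318, chr11:12048287-12048586, minus strand), Gm52919 (gene ID 115490434, chr6:127321112-127321411, minus strand) and Junos (gene ID 230451, chr4:95143815-95144114, plus strand). All sequences are from RefSeq, GRCm38.p6, written 5′ to 3′ on the gene's strand.
Gm27204: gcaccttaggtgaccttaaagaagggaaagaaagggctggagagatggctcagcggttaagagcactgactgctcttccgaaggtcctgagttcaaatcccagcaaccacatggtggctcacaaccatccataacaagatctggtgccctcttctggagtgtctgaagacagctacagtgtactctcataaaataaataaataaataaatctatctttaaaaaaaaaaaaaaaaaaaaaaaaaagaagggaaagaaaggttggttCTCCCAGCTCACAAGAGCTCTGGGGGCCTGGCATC
Gm30423: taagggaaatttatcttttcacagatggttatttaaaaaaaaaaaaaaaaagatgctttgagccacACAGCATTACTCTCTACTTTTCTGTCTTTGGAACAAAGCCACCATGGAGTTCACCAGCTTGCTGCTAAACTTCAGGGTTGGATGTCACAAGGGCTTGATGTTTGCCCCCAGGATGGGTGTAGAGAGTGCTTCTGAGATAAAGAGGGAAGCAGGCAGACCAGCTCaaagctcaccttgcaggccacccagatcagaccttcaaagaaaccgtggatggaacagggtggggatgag
Gm52919: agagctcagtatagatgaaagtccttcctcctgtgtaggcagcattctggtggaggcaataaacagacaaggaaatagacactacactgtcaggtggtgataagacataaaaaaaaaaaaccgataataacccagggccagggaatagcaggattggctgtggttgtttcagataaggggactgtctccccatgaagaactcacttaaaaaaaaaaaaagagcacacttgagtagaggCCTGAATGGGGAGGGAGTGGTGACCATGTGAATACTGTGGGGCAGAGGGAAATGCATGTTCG
Junos: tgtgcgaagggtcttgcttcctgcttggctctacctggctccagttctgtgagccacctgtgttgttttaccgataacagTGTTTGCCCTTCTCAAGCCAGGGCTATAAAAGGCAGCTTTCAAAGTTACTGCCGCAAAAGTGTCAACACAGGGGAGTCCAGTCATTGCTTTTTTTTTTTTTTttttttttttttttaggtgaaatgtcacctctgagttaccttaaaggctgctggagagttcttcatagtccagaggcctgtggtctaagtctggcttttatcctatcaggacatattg

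In these 4 windows the stretch under both peaks was 35 bases at Gm27204, 164 at Gm30423, 62 at Gm52919 and 102 at Junos. Junos spans 117 kb of chromosome 4 (95052317 to 95169036), and Jun, which encodes a subunit of the transcription factor AP-1, lies 0.095 kb from it. The Junos window shown belongs to a start within the gene and not at either end. Its peaks, as members, lay more than 5 kb from Jun. Its sham peak scored 19.5, in the top 9.43% of the sham list, and its SCI peak scored 8.59, in the top 36.9% of the SCI list. At Gm52919 the order was the other way round, with the SCI peak (score 23, top 2.09%) ranked higher in its list than the sham peak (score 15.9, top 15.0%) in its own. The peaks at Gm30423 lay in the top 14.3% of sham and the top 41.7% of SCI, and those at Gm27204 in the top 81.4 and 38.1%. The Gm30423 window also belongs to a start within its gene, which runs from 12040686 to 12049078. These genes and windows were chosen after their values were seen.

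A search of the windows for TTCNNNGAA, a 9-base form of the STAT palindrome that reads the same on both strands, found it in 2719 of the 32619 promoter windows of all genes (8.34%). It was in 1085 of 11574 lncRNA windows (9.37%), in 5 of the 53 windows touched by a sham member (9.43%, 95% exact binomial interval 3.13 to 20.7%) and in 2 of the 13 touched by an SCI member (15.4%, 1.92 to 45.4%). The intervals of the touched windows hold the share of all windows. In 1 sham window and 1 SCI window the motif lay under the peak itself, and these are shown with the motif in capitals. They belong to Gm35917 (gene ID 102639658, chr10:51183375-51183674, minus strand, sham peak) and Gm41312 (gene ID 105245940, chr15:41317391-41317690, minus strand, SCI peak).
Gm35917: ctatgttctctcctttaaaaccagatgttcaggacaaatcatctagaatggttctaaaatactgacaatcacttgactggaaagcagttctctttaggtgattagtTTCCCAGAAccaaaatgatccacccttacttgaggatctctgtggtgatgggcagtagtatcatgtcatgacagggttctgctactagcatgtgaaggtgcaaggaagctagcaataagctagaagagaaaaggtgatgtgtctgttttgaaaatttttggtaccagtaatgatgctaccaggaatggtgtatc
Gm41312: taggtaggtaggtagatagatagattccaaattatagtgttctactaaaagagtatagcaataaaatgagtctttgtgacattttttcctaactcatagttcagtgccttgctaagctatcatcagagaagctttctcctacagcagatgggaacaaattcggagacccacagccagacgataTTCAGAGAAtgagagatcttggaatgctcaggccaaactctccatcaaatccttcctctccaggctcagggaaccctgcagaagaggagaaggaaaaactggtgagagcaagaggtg

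The Gm35917 peak scored 5.76 (top 82.0% of sham) and the Gm41312 peak scored 5.32 (top 87.6% of SCI), so both matches were at low-ranked peaks. The Gm35917 window belongs to a start within its gene, which runs from 51175871 to 51187091. The sequence under members away from starts was not searched.

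Inside lncRNA genes the sham list held more members than the SCI list, in about the ratio of the lists themselves. The ratio of sham to SCI members was 2.41, against 2.45 for all peaks on the same chromosomes, and by chromosome it lay between 1.94 on chromosome 19 and 2.88 on chromosome 18. Members were 6.14% of the sham list (95% exact binomial interval 5.98 to 6.30%) and 6.24% of the SCI list (5.99 to 6.49%), and these intervals overlap. Such intervals cover counting error only. Members made up the smallest share of peaks on chromosome X (2.74% in sham and 2.59% in SCI) and the largest on chromosome 13 (8.54 and 9.51%). How much lncRNA gene sequence each chromosome offered under the rule is not given here, and its part in these shares was not tested.

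The rule left out many peaks that were inside an lncRNA gene but near coding genes. At any distance, 7671 sham peaks had their centre in an lncRNA gene, of which 1578 were also inside a protein-coding gene and 646 were within 5 kb of one. For SCI the numbers were 3219, 700 and 259. The median member was 63.9 kb from the nearest protein-coding gene in sham and 61.5 kb in SCI. Closest to the limit in sham were a member in 4930512B01Rik, 5007.5 bp from a coding gene (score 9.62), and an excluded peak in 1700072I22Rik at 4994.5 bp (score 7.44). In SCI they were a member in Gm32385 at 5085.5 bp (score 5.93) and an excluded peak in 4930511A02Rik at 4957.5 bp (score 5.62).

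Peak density in this territory lay between that of protein-coding genes and that of gene-free sequence. Over the 162.2 Mb of lncRNA gene sequence more than 5 kb from coding genes there were 33.6 sham and 13.9 SCI members per Mb. Inside protein-coding genes the density was 37.6 sham and 15.3 SCI peaks per Mb. Outside all genes, and more than 5 kb from coding ones, it was 30.9 and 12.7. The order was the same in both lists. The differences have no test, because each list is 1 library.

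**Figure D1:**
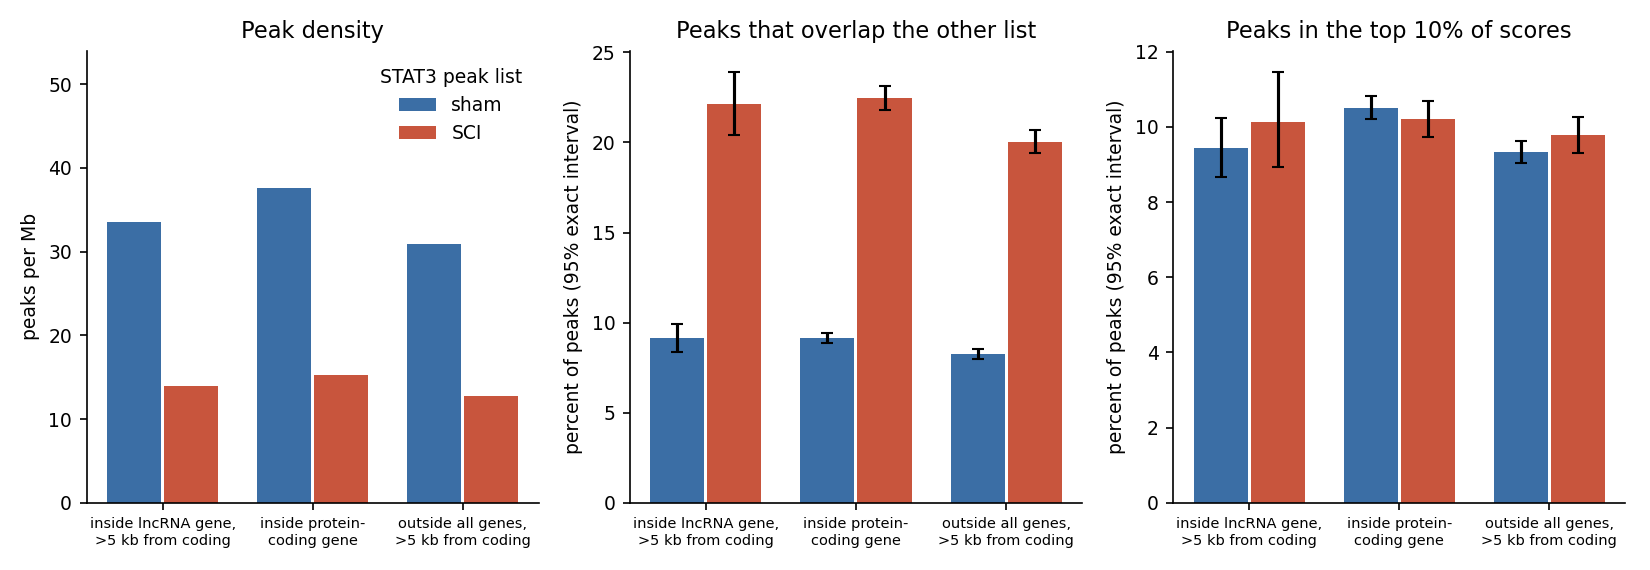
Peaks per Mb (left), share of peaks that overlap the other list (middle) and share in the top 10% of the list by score (right), for peaks inside lncRNA genes, inside protein-coding genes and outside all genes, in sham (blue) and SCI (red). Error bars are 95% exact binomial intervals, and members sit between the other classes in density, at 33.6 and 13.9 per Mb.

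Most lncRNA genes held no member, and most of those that did held 1. Of 12697 lncRNA genes on these chromosomes, 8563 had sequence more than 5 kb from a coding gene, with a median of 8.72 kb of it. A sham member was found in 2944 of them (34.4%) and an SCI member in 1656 (19.3%). Both lists had a member in 1123 genes, while 1821 genes (21.3%) had a sham member and no SCI member and 533 (6.22%) the reverse. The sham count exceeded the SCI count in 2405 genes, the SCI count was higher in 624, and the counts were equal in 448. Of the genes with a sham member, 59.1% held 1 and 25 genes held 10 or more. Of those with an SCI member, 74.1% held 1, and Gm32647 alone held 10 or more. A member could lie in overlapping lncRNA genes, as 229 sham and 102 SCI members did, and then counted for each.

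Whether a gene held a member followed its length. In the shortest decile of the genes, by sequence more than 5 kb from coding genes, 3.501% had a sham member and 1.40% an SCI member. In the longest decile the shares were 86.7 and 61.8%. Members per Mb varied far less. In sham they ran from 30.6 in the longest decile to 38.7 in decile 8, and in SCI from 12.6 in the longest decile to 18.3 in decile 7. The 2212 genes with a curated RefSeq transcript had 33.0 sham and 14.2 SCI members per Mb, and the 6351 with predicted transcripts only had 34.0 and 13.9.

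**Figure D2:**
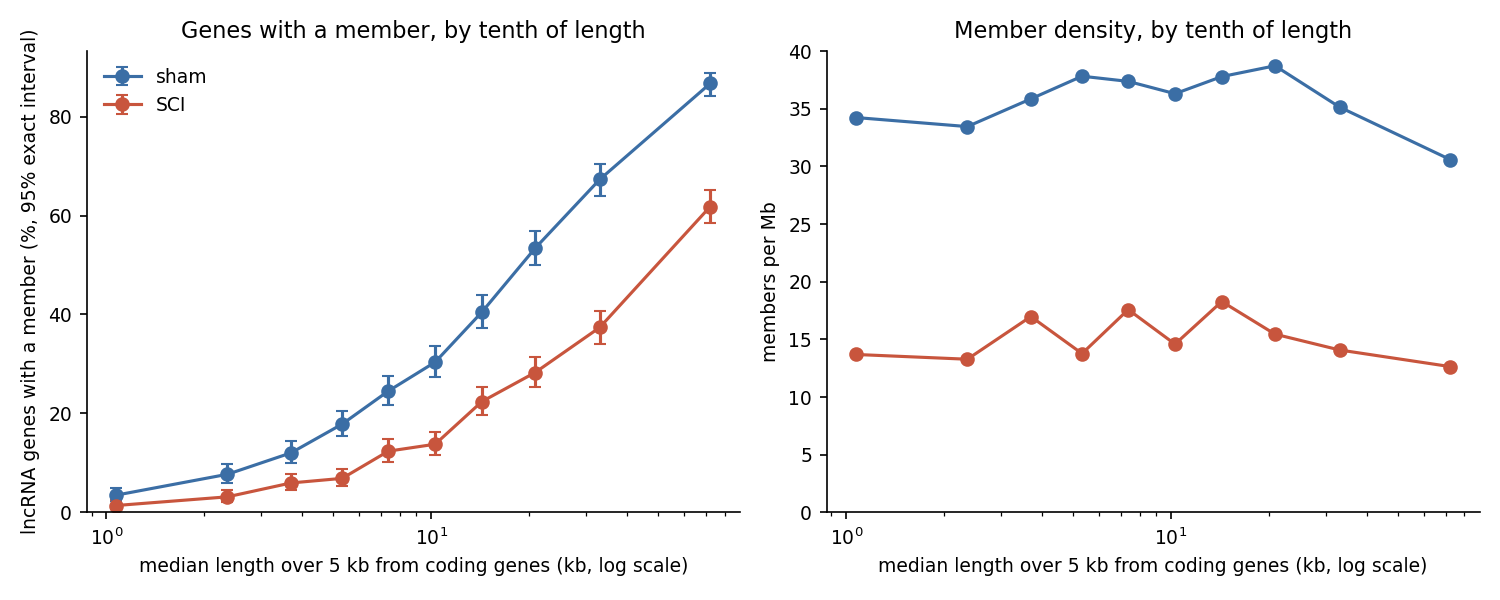
Left, percent of lncRNA genes with a member, and right, members per Mb, for deciles of the genes ordered by their length more than 5 kb from coding genes (x axis, kb, log scale), in sham (blue) and SCI (red), with 95% exact binomial intervals on the left. The share of genes with a sham member climbs from 3.501 to 86.7% with length, while sham density stays between 30.6 and 38.7 per Mb.

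Along the genes, members were spread from end to end. In the 2389 genes of at least 10 kb and known strand that lay wholly more than 5 kb from coding genes, 21.1% of 2882 sham members lay in the quintile of the gene nearest its 5′ end, and the other quintiles held 19.4 to 20.1%. For 1180 SCI members the 5′ quintile held 21.3% (95% exact binomial interval 18.97 to 23.7%), the second 17.4% (15.3 to 19.7%), and the rest 18.3 to 21.8%. An even spread gives each quintile the same share, and among the SCI intervals that of the second lay wholly below it.

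The genes with the most members were long genes, many of them without a described role. Gm32647 (gene ID 102635262, chromosome 7, 94042496 to 95326426) led both lists, with 43 sham and 16 SCI members over 1284 kb, and its nearest protein-coding gene, Tenm4, lay 845 kb away. Sham scores there had a minimum of 5, a median of 8.51 and a maximum of 38.5, and SCI scores had 5, 6.74 and 26.8. Per 100 kb the gene held 3.35 sham and 1.25 SCI members, close to the density of the whole territory. When the sham list was shortened to its 36239 highest-scoring peaks, as many as SCI has, 16 sham members were left in Gm32647.

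In sham the next genes were 2610307P16Rik, with 23 sham and 5 SCI members, and 1700019L22Rik, with 23 and 6. 2610307P16Rik (gene ID 72518, chromosome 13, 28460034 to 28885422) lies 63.5 kb from Sox4, which encodes a transcription factor of progenitor cells, and held 5.41 sham members per 100 kb. 1700019L22Rik (gene ID 75549, chromosome 8, 50117897 to 50917433) held 2.88 per 100 kb over 800 kb, and no position in it was shared by the lists. Gm27243 had 19 sham and 4 SCI members and A930011G23Rik had 18 and 4, again with no shared position. D5Ertd615e had 17 and 9, of which 3 positions were shared.

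D030068K23Rik (gene ID 628686, chromosome 8, 109075222 to 109253639) was among the leaders in both lists while being shorter than most of them. It held 15 sham members, of which 9 were among the 36239 highest, and 6 SCI members, 8.41 and 3.36 per 100 kb. It overlaps 4922502B01Rik, which held 7 sham and 5 SCI members, and the same peaks can count for both. The nearest coding gene to D030068K23Rik is Zfhx3, a homeobox transcription factor gene, at 114 kb.

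In SCI, 6530403H02Rik and D5Ertd615e followed Gm32647 with 9 members each. 6530403H02Rik (gene ID 320739, chromosome 3, 120454334 to 120886732) had 14 sham members, and 3 of its positions were shared. Its SCI scores had a minimum of 5, a median of 6.78 and a maximum of 30.3. Gm33037, Gm30340 and 4930500H12Rik had 8 SCI members each, with 6, 12 and 11 in sham. Gm20754 had 7 SCI and 8 sham members, 9530026P05Rik had 6 and 7, and 1700123O12Rik had 6 and 10. Gm33037 was therefore the one gene of this group with more SCI than sham members.

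**Figure D3:**
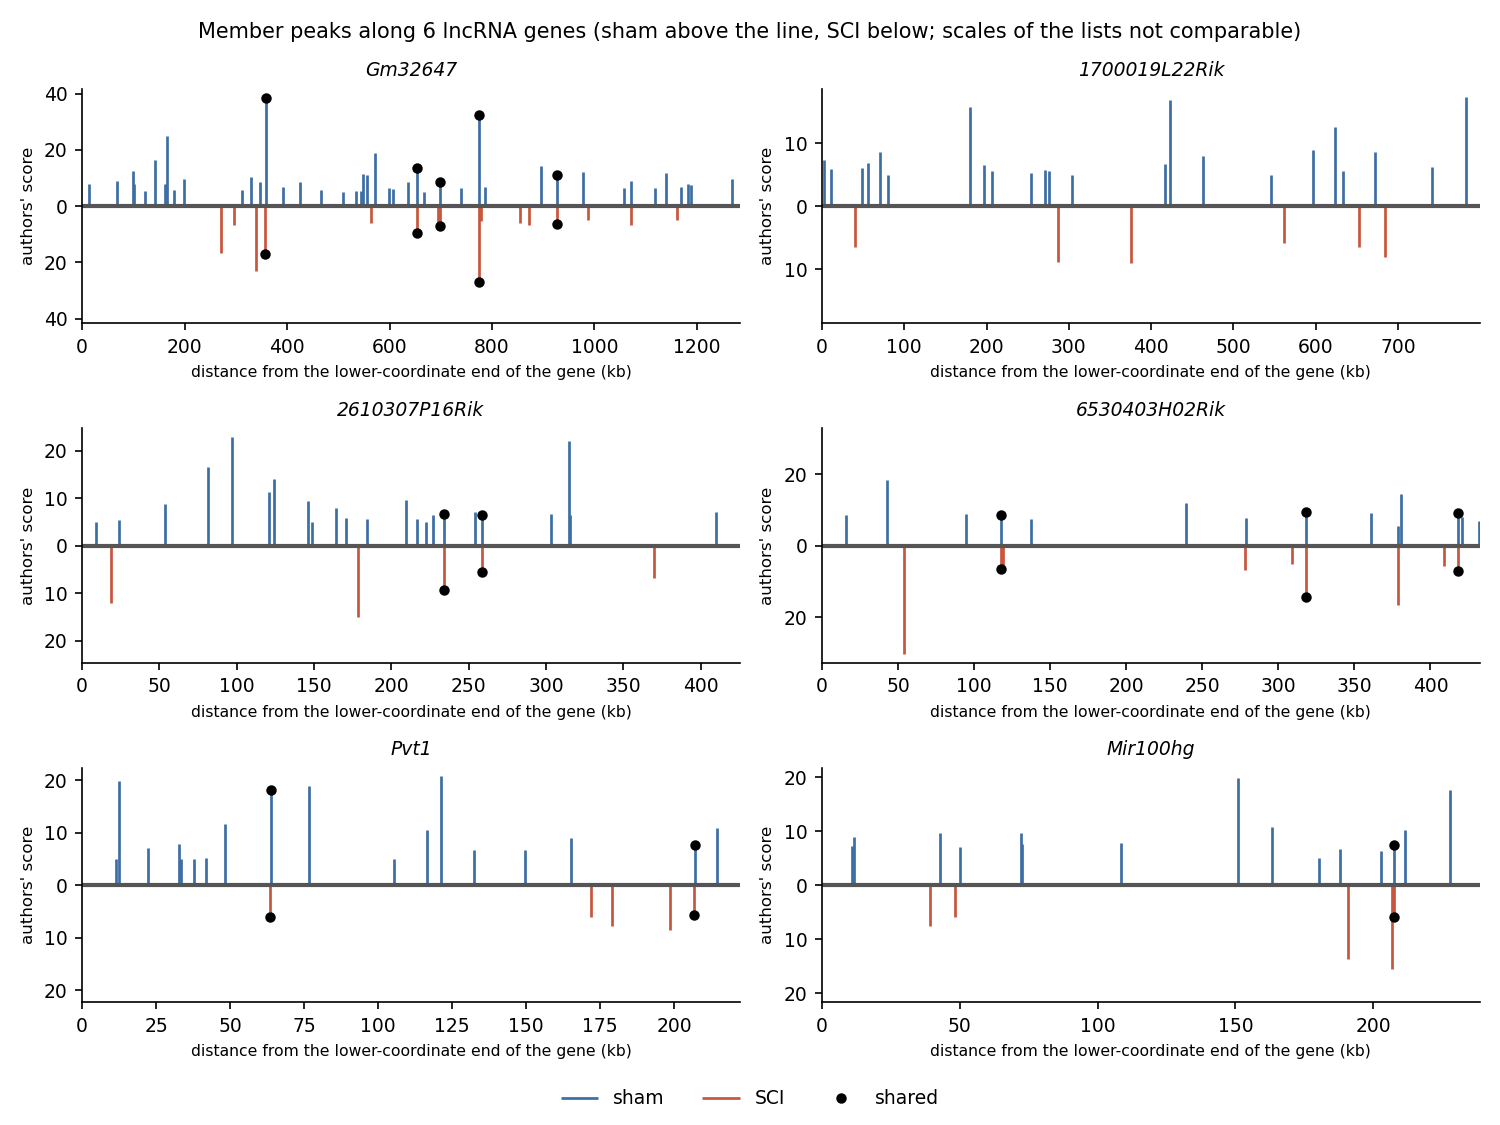
Position of members along 6 lncRNA genes (x axis, distance in kb from the gene end with the lower coordinate), with the authors' score as line height, sham above and SCI below the gene line, and black dots on shared positions. The score scales of the lists cannot be compared. Gm32647 shows 5 shared positions, 1700019L22Rik none.

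Among genes with at least 5 members, the 5 with the most per length spanned 19.1 to 31.3 kb in sham and 85.1 to 165 kb in SCI. The floor of 5 members was the same for the sham list of 88757 peaks and the SCI list of 36239. The part of list length in these spans and densities was not tested. In sham Gm38660, which lies 35.3 kb from the homeobox gene Otx2, held 5 members in 19.1 kb, or 26.2 per 100 kb. It was followed by 1700126H18Rik (20.2 per 100 kb), Gm5099 (20.02), 2310039L15Rik (18.6) and Gm36199 (15.99), each with 5 sham members and with 0, 1, 1 and 2 in SCI. Gm36199 lies 24.7 kb from Pim1, which encodes a kinase known as a STAT3 target. Its 5 sham scores were 5.32, 12.2, 15.0, 5.02 and 8.83, and its 2 SCI scores were 8.35 and 11.3, the last of them at the place of the sham peak of 8.83. That shared place was 27.9 kb from Pim1. In SCI the densest such genes were Gm46948, 9030622O22Rik, Gm33037, 4922502B01Rik and LOC115485826, with 5 to 8 members and 5.88, 5.35, 4.99, 4.78 and 4.69 per 100 kb.

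Of 90 lncRNAs with a described role that were listed from general knowledge, 68 matched an lncRNA gene of the annotation and 53 had sequence more than 5 kb from a coding gene. A sham member was found in 25 of the 53 (47.2%, against 34.4% of all such genes) and an SCI member in 14 (26.4%, against 19.3%). All 14 also held a sham member, as did 1123 of the 1656 lncRNA genes with an SCI member. These genes had a median of 20.8 kb of such sequence, against 8.72 kb for all lncRNA genes. The part of length in their share, and in the shares of the groups below, was not tested. Shortening the sham list to the SCI number of peaks left 15 genes with a sham member. At any distance to coding genes, 30 of the 68 had a sham peak inside and 20 an SCI peak. Hottip, Hoxaas3 and Evx1os had SCI peaks inside and no sham peak, but none of these was a member. Shares at any distance over all 12697 lncRNA genes are not given here, so these counts have no background beside them.

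Among imprinted and X-linked lncRNAs, 6 of 10 held a sham member and 4 an SCI member. Their median was 37.6 kb of sequence more than 5 kb from coding genes, a length in decile 9 of all lncRNA genes. In that decile 67.3% of genes had a sham member and 37.4% an SCI member. Airn, an imprinted RNA that silences Igf2r on the paternal chromosome, had sham members with scores of 74.4 and 12.0 and an SCI member with a score of 8.78, at 3 different places. Its highest sham member (rank 31) lay 21.3 kb from Igf2r. Snhg14, the long imprinted transcript that hosts small nucleolar RNAs and runs antisense to Ube3a, had 7 sham scores of 14.0, 9.15, 5, 5, 5.01, 17.3 and 28.3. Its 4 SCI scores were 8.76, 5.11, 8.64 and 5.93, and no position was shared. Only part of Snhg14 met the distance rule, and 24 sham and 7 SCI peaks lay inside it in all. Rian, another snoRNA host of an imprinted locus, had sham scores of 17.2, 5 and 5.37 and an SCI score of 5.20.

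On chromosome X, Ftx, which lies in the X-inactivation centre, had sham scores of 6.35, 5 and 23.6 and an SCI score of 15.2 at another place, in the top 8.74% of the SCI list. Xist, the RNA that coats the inactive X, had 1 sham member with a score of 6.12 and Firre, a nuclear RNA involved in chromatin organisation, had 2 with scores of 13.0 and 8.05, and neither had an SCI member. Meg3, H19, Jpx and Mirg had no member in either list.

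Among nervous system lncRNAs, 10 of 14 held a sham member (71.4%) and 4 an SCI member (28.6%). Their median was 31.8 kb of sequence more than 5 kb from coding genes, also a length in decile 9 of all lncRNA genes. That decile had shares of 67.3% in sham and 37.4% in SCI. Tunar, an RNA of neural differentiation, had sham scores of 16.9 and 5.42 and an SCI score of 9.75, and the SCI peak overlapped the lower sham peak. Miat, a nuclear RNA of neurons, had sham scores of 7.24 and 10.3 and an SCI score of 8.80, and Sox1ot had 5.93 in sham and 8.17 in SCI, without a shared position. Pantr1, next to the neural transcription factor gene Pou3f3, had sham scores of 7.38, 6.25 and 6.29 and an SCI score of 8.80. The other 6 had sham members only, though Sox2ot also held 1 SCI peak that was not a member. Rmst, an RNA of neurogenesis, had the highest of these, 24.95 in the top 4.87% of the list, and 9.02. Sox2ot, which overlaps the neural stem cell gene Sox2, had 7, 5.05 and 5.48, the last of them 10.7 kb from Sox2. Nkx2-2os had 10.8 and 5.85, Crnde had 12.1, Pantr2 had 5.24 and Dlx6os1 had 5.14. Apart from Rmst, no gene of this group had a member in the top 10% of either list.

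Of the 10 microRNA host genes, Mir100hg, Mir99ahg and Mir670hg held sham members and the first and last of them SCI members. The median length of the 10 more than 5 kb from coding genes, 16.9 kb, falls in decile 7 of all lncRNA genes. There 40.5% of genes had a sham member and 22.4% an SCI member. Mir100hg (gene ID 73144, chromosome 9, 41376526 to 41615185) had 15 sham members with scores from 5 through a median of 7.79 to 19.9, and 5 SCI members with scores of 7.49, 5.93, 13.6, 15.6 and 5.93. The last SCI place, 322 kb from the nearest coding gene, was shared with a sham peak of 7.44. At 6.29 sham and 2.10 SCI members per 100 kb it was denser than the territory as a whole in both lists. Mir99ahg, a microRNA host of similar length, had 4 sham members (scores 6.87, 5, 9.56 and 6.75) and no SCI member. Mir670hg had 3 in each list, none of them shared, with sham scores of 5.24, 5.64 and 5.94 and SCI scores of 9.95, 7 and 8.46.

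Among lncRNAs of growth and p53 responses, 5 of 11 held a sham member and 3 an SCI member. Their median was 21.7 kb of sequence more than 5 kb from coding genes, a length in decile 8 of all lncRNA genes. In that decile 53.4% of genes had a sham member and 28.3% an SCI member. Pvt1 (gene ID 19296, chromosome 15, 62037986 to 62260215), which neighbours the proto-oncogene Myc, had 18 sham and 5 SCI members in 222 kb, or 8.10 and 2.25 per 100 kb. Its sham scores had a minimum of 5, a median of 7.78 and a maximum of 20.8, and 2 of them were in the top 10% of the list. Its SCI scores were 6.11, 6.14, 7.70, 8.46 and 5.72, none in the top 10%. The first and last of these SCI peaks, 111 and 254 kb from Myc, overlapped sham peaks with scores of 18.04 and 7.74. After shortening the sham list, 7 sham members were left in Pvt1. On the other side of Myc, D030024E09Rik had 6 sham members, 213 to 255 kb from Myc with scores from 5 to 10.8, and no SCI member.

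Dleu2, a microRNA host deleted in leukaemia, had 2 members in each list, with scores of 5.14 and 9.59 in sham and 11.6 and 5.56 in SCI, and the lowest of each list shared a place. Lncenc1, an RNA of pluripotent cells, had sham scores of 6.75, 6.89 and 5.08 and SCI scores of 5.86 and 9.58 at other places. Lncpint, a p53-induced RNA, had 6.52 and 8.58 in sham, and Fendrr, divergent from Foxf1, had 5.85, with no SCI member in either.

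The immune and injury group had 1 gene of 4 with members. Its median was 13.0 kb of sequence more than 5 kb from coding genes, a length in decile 7 of all lncRNA genes. In that decile 40.5% of genes had a sham member and 22.4% an SCI member. Morrbid, which represses the pro-apoptotic gene Bcl2l11 in short-lived myeloid cells, had sham scores of 9.64, 13.5 and 10.7 and SCI scores of 11 and 7.15, all at different places. Its 2 SCI members lay 161 and 181 kb from Bcl2l11. The nuclear body RNAs Malat1 and Neat1 had no peak inside them in either list. Zeb2os, the lncRNA gene the series concerns, had no sequence more than 5 kb from a coding gene and no peak inside it in either list.

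**Figure D4:**
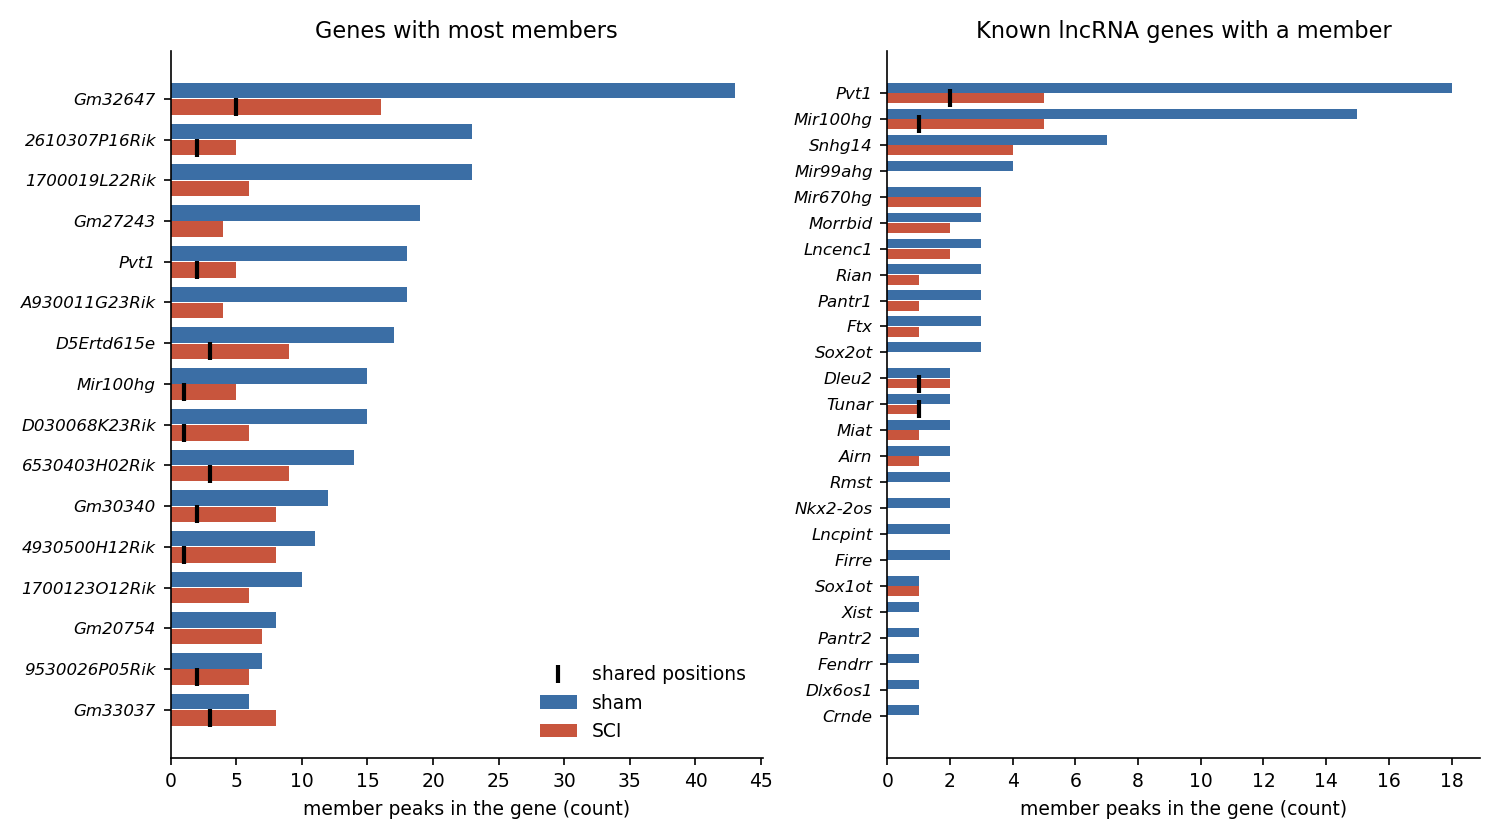
Member peaks per gene (x axis, count) in sham (blue) and SCI (red) for the genes with the most members (left) and for the known lncRNA genes with a member (right), with black ticks at the number of shared positions where it is above 0. Gm32647 leads with 43 and 16 members. A sham member and no SCI member was found in 11 of the 53 known genes with sequence more than 5 kb from coding genes. Among all 8563 such lncRNA genes this held for 1821 (21.3%).

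By score rank, members were spread over the lists much as other peaks were. Rank 1 is the highest score of a list, and the top 10% of each list held 10% of sham peaks and 10.1% of SCI peaks, ties included. It held 9.44% of sham members (95% exact binomial interval 8.67 to 10.2%) and 10.1% of SCI members (8.92 to 11.5%). Inside protein-coding genes the shares were 10.50% (10.2 to 10.8%) and 10.2% (9.74 to 10.7%), so the sham intervals overlap by a narrow margin. The median member stood at 50.6% of the sham list and 47.4% of the SCI list. In each list 5 was the lowest score, held by 317 sham and 169 SCI members.

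The highest sham member, with a score of 132 and rank 4, lay in Gm40034 (chromosome 2, 181917922 to 181918080), a gene of 4.01 kb with no other member. Next were members of Gm31698 (78.5, rank 22), Gm39871 (77.8, rank 24), Airn (74.4, rank 31) and Gm36771 (69.8, rank 48). A230004M16Rik, Gm40504, Gm7854, Gm4117 and Gm41533 completed the first 10, with scores from 69.3 down to 63.2. The Gm4117 member (chromosome 13, score 65.5) lay 13.4 kb from Vcan, which encodes the matrix proteoglycan versican, and overlapped an SCI peak that scored 6.54 (top 63.3%). Of these 10 places, those in Gm31698, Gm39871, Gm40504 and Gm4117 were shared with SCI. The usual sham peak had 190 bp, and 0.991% of sham members had another width. Among the 10, the Gm7854 member had 190 bp and the others were 97 to 159 bp wide. The input libraries and lists of artefact-prone regions were not used, and their part in the highest scores was not tested.

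The highest SCI member, in Gm39400 (chromosome 9, 91742154 to 91742317, score 48.4, rank 28), had no sham peak over it. The member in Gm46329 (48.3, rank 29) overlapped a sham peak of 5.16, in the top 91.3% of the sham list. Next came Gm33462 (46.1, rank 35, 154 kb from Tox) and LOC115487722 (46.1, rank 36), followed by Gm31615 (39.3, rank 70). The LOC115487722 member lay 13.1 kb from Il3, which encodes the cytokine interleukin-3, and overlapped a sham peak that scored 25.5 (top 4.56%).

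A member at rank 83 of the SCI list (score 38.5) lay in both Tbx3os1 and Gm16064, 17.2 kb from the T-box gene Tbx3, over a sham peak of 13.9. Gm31384 had the member at rank 86 (score 38.3), 12.7 kb from Vcam1, which encodes an adhesion molecule of activated endothelium. Its 3 sham scores were 6.69, 14.9 and 32.6, and the place of the SCI peak was that of the sham peak of 14.9. The first 10 SCI members ended with 1700123O12Rik (37.2, rank 98), Gm29677 (35.7, rank 128) and Gm36090 (34.4, rank 147). In Gm46329, Gm33462, LOC115487722, Gm31615, Tbx3os1, Gm31384 and Gm36090 the SCI place was shared with sham, and in Gm39400, 1700123O12Rik and Gm29677 it was not. The usual SCI peak had 164 bp, and 0.796% of SCI members had another width. The members in Gm46329, Gm33462, LOC115487722, Gm31615 and Tbx3os1 were 94, 50, 58, 84 and 55 bp wide. The rest of the first 10 had 164 bp.

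Positions shared by the lists were as common among members as among all peaks. Shared here means an overlap of 1 bp or more with any peak called in the other condition, which held for 8.84% of all sham peaks and 21.6% of all SCI peaks. Among members it held for 498 in sham (9.14%, 95% exact binomial interval 8.39 to 9.94%) and 500 in SCI (22.1%, 20.4 to 23.9%). The shares inside protein-coding genes were 9.14 and 22.5%, and outside all genes they were 8.25% (7.97 to 8.53%) and 20.03% (19.4 to 20.7%). The intervals for members overlap those outside all genes in both lists. With the sham list shortened to 36239 peaks, 2194 sham members were left, 14.3% of them were shared, and 14.0% of SCI members were.

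High-scoring members were shared more often than low-scoring ones. In the highest decile of the sham list 23.7% of members were shared (95% exact binomial interval 20.1 to 27.7%) and in the lowest decile 3.34% (1.99 to 5.23%). For SCI the shares were 45.4% (38.8 to 52.1%) and 10% (6.30 to 14.9%). These intervals do not overlap within a list, and over all peaks the highest decile was shared at 21.0% in sham and 42.0% in SCI. Some scores equalled 2√k − 1 with k within 0.0001 of a whole number, and these peaks made up 23.7% of sham and 34.6% of SCI members. They were shared in 0.773 and 4.74% of cases, and the remaining members in 11.7 and 31.3%. The whole lists were alike in this. Over all peaks, 22.9% of sham and 33.1% of SCI had such scores. These were shared in 0.727 and 4.82% of cases, and the remaining peaks in 11.3 and 30.0%.

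**Figure D5:**
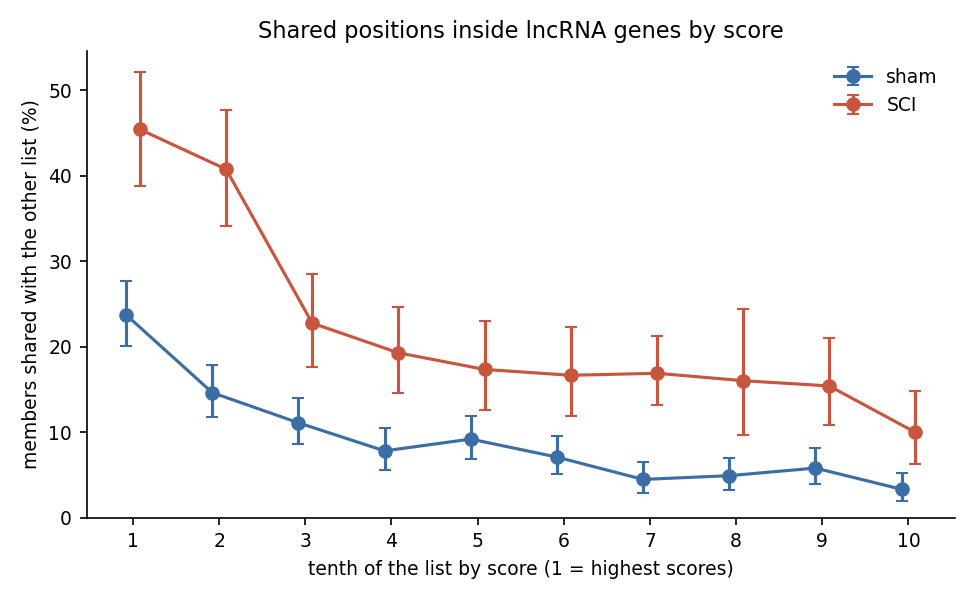
Percent of members that overlap a peak of the other list (y axis) by decile of the list in score order (x axis, 1 is the highest), in sham (blue) and SCI (red), with 95% exact binomial intervals. The share is highest in the first decile, at 23.7% in sham and 45.4% in SCI, and lowest in the last.

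Between members of both lists there were 497 shared positions, in 463 genes. The median overlap was 123 bp, and the Spearman correlation between the sham and SCI scores of these pairs was 0.129. A gene held 1 such position in 415 cases, 2 in 40, 3 in 7 and 5 in Gm32647, and 36 positions were in the top 10% of both lists. The correlation and the count in the top 10% are not given here for all shared peaks, so neither can be called particular to members. At the 5 positions of Gm32647, from low to high coordinate, the sham scores were 38.5, 13.5, 8.57, 32.6 and 11.2, and the SCI scores were 17.0, 9.72, 7.06, 26.8 and 6.38. The first and the fourth were high in both lists, and the third was in the middle of each.

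Gm31301, 9030622O22Rik, Gm29478 and Gm33037 were named among those with 3 shared positions. 9030622O22Rik, near the transcription factor gene Foxa2, had sham scores of 7.58, 35.6 and 13.4 at its shared places and SCI scores of 18.5, 12.7 and 8.34, at 71.2, 39.1 and 8.7 kb from Foxa2. The highest sham place was thus not the highest SCI place. Gm29478, near Zic4, a zinc-finger gene of neural development, had sham scores of 41.4, 24.8 and 17.0 and SCI scores of 10.7, 6.18 and 7.71. In Gm31301 the sham scores were 6.30, 8.30 and 5.06 and the SCI scores 5.77, 7.16 and 9.96, and every member of SCI in that gene was shared. In Gm33037 they were 9.28, 8.81 and 26.1 in sham and 5.77, 10.1 and 5.12 in SCI.

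Shared positions were ordered by the larger of their 2 ranks, as plain ranks in lists of unequal length. The first were in Gm30275 (chromosome 14, 54082692 to 54082790 in sham), with rank 290 in sham and 393 in SCI, and in Gm31698, with ranks 22 and 882. They were followed by Gm33485 (867 and 1176), Gm34664 (1699 and 274), Gm32647 (1829 and 397), A630039O03Rik (1869 and 360) and Gm29185 (1884 and 742). A second place in Gm32647 (955 and 2212), Gm52395 (2257 and 1094) and Gm40504 (53 and 2476) completed the 10. The order depends on this choice. By percent of the list, the last SCI places, in Gm32647 (top 6.11%) and Gm40504 (top 6.83%), come after those in Gm32026 (top 3.01% of sham and 1.88% of SCI) and LOC115487722 (top 4.56 and 0.0993%), and Gm31698 (top 2.43% of SCI) comes after Gm34664, the better place of Gm32647, A630039O03Rik and Gm29185. Gm32026 was named after its values were seen. Most of the 10 were far from coding genes. The Gm52395 place was 18.4 kb from Smarca2, which encodes a chromatin-remodelling ATPase, that of Gm40504 8.04 kb from Gm5373, and the others 68.6 kb or more.

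Genes with many members in 1 list and none in the other were led in sham by Gm36865 (gene ID 102640914, chromosome 7, 72745571 to 72826646), with 9 members, scores from 5.58 to 12.7 and a median of 8.87. Only 3 of these 9 were among the 36239 highest sham peaks. Gm29571 and Gm40931 had 7 sham members each, and Gm36617 and D030024E09Rik had 6. In SCI, Gm32840 had 4 members, 25.5 to 44.2 kb from the amino acid transporter gene Slc38a4, with scores of 5.20, 5.93, 6.95 and 5.80. Gm30695, Gm29967, Gm40286 and Gm31631 had 3 SCI members each. Of these, Gm30695 had a member that scored 25.4 (top 1.45%), and Gm31631 held its 3 within 8.52 kb, with scores of 6.95, 6.42 and 15.97.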

How the data were processed

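STAT3 ChIP-seq of sham and SCI spinal cord was analysed from 1 deposited peak list per condition, matched to its sample by title. Reads were aligned with Bowtie2 to mm10, per the submitters' processing notes, while the sources used here name no peak caller, control or threshold. Each deposited list holds a score per peak, which is the authors' own value, a −log10 value in the place of a q-value, which was not used here, and a summit position. Whether the scores of the lists share a scale is not given, so scores were ranked within each list, over chromosomes 1 to 19 and X.

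Gene spans and promoter windows came from RefSeq, GRCm38.p6, whose primary chromosomes have mm10 coordinates. Of the lncRNA genes, 9520 had a promoter window, which also gave the strand. Shares carry 95% exact binomial (Clopper-Pearson) intervals. Peak positions are fixed by the authors' calls, the sequencing depth is unknown, and no test between conditions was possible with 1 library each. The members and gene lists were chosen with earlier results of these data known. The genes named are, for each list, the 10 with most members, those at the 10 highest-scoring members, the 5 densest with at least 5 members and up to 5 with most members and none in the other list; those at the 10 shared positions whose larger rank number was lowest; the 5 with most shared positions; and known lncRNA genes with a member. Genes at shared promoter windows and at the distance limit, neighbouring coding genes, and known lncRNAs without a member were named after their values were seen. The 53 known genes fall into 7 groups, of which the group of Zeb and Hox antisense RNAs had 2 with eligible sequence and no member.

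Alternatives changed the distance to coding genes, the part of the peak inside the gene, the score threshold, the number of sham peaks, the score forms used, the genes used and the rule for sharing. The counting code was tested on simulated data. Tools were matplotlib 3.10.9, scipy 1.17.1, pandas 2.3.3 and numpy 2.4.6 under Python 3.11.15.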

Additional observations from a re-analysis of the deposited data

How the results depend on the processing

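Of 118 values recomputed for the main counts and shares, 87 stayed within 1.5 times the reported count or within the reported interval, and 31 moved. Some of the 87 could not move. Shortening the sham list left the SCI list as it was, so among SCI values only the shared share could change. Requiring more than 50 kb to coding genes left 3082 sham and 1271 SCI members in 1532 and 879 genes, 13 and 8 known genes, and 8.08% of sham members in the top 10%. Keeping scores at or above the list median left 2693 and 1159 members in 1869 and 993 genes, and 16 known genes in sham. Shortening the sham list to the SCI number of peaks left 2194 sham members in 1623 genes, 15 of them known, with 14.3% of sham and 14.0% of SCI members shared. Leaving out scores of the square-root form from both lists left 1479 SCI members and shared shares of 10.98 and 30.9%. An overlap of at least 50% of both peaks gave 6.10 and 14.8% shared, and centres within 1000 bp gave 11.2 and 26.5%. Leaving out predicted-type symbols left 272 and 102 members in 108 and 63 genes, and the motif in 50% of sham and 0% of SCI windows, over very few windows. Ranking sham members among peaks more than 5 kb from coding genes put 10.4% in the top 10%. For the counts of single named genes 373 of 1530 values moved. Sequencing depth is unknown and limits what an absent peak can say. No paired analysis was possible because each condition had 1 library and no result comes from a test.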
